A study of Mus musculus with 15 samples.

Results

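Blood platelets are shed by megakaryocytes and carry RNA of a small set of chemokines, surface glycoproteins and enzymes. These platelet and megakaryocyte genes were followed here in 3 populations of mouse neutrophils. The set holds 10 genes and was taken by gene symbol, in its current or former form, from the array's probe annotation. It comprises the chemokines Ppbp and Pf4, the lipoxygenase Alox12, the glycoproteins Gp1bb, Gp5, Gp6 and Gp9, the integrin chains Itga2b and Itgb3, and the granule receptor Treml1. Of these 10 genes, 9 were found, on 12 probes among the 16317 probes tested, which cover 11074 named genes. Gp6 was not analysed here.

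RNA was hybridized to Illumina Mouse Ref-8 v2 bead arrays from BALB/c neutrophils defined as Ly6G+. TAN, the tumor-associated neutrophils, came from AB12 mesothelioma tumors grown in the flank, about 12 to 15 days after injection (4 arrays). G-MDSC, granulocytes counted among the myeloid-derived suppressor cells, came from the spleens of mice with such tumors after about 21 to 25 days (4 arrays). NN, the naïve neutrophils, came from the bone marrow of mice without tumors (7 arrays). Mice were pooled, 2 to 4 for the RNA of an array. All tumors thus came from a single cell line, and tissue of origin, tumor burden and the preparation of the cells differ together between the populations. Per the methods, marrow was flushed and passed over a Percoll gradient, while spleens and tumors were digested and sorted after CD11b beads. The labels give beads and the sort for all 3.

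Signals are given as log2 of the normalized intensity, and a gene with several probes is given by its brightest one. A probe counted as above background on an array when its signal exceeded a limit, set on each array so that 95% of the 9375 probes outside the authors' filtered table fell below it. The limit lay between 6.45 and 6.56 over the 15 arrays. Between 12559 and 14228 probes passed this limit per array. Median background signals were of a higher level on all G-MDSC, NN 6 and NN 7, and of a lower level on all TAN and NN 1 to NN 5. Where a gene has several tested probes (2957 genes), these lay over 4-fold apart, relative to their NN means, in 5.48 to 22.6% of genes in TAN, in 1.32 to 2.47% in G-MDSC and in 0% in NN. Each probe was set to its own NN mean, so the NN share is low by design and nothing is read from it. Among the TAN, the share was 22.6, 22 and 17.5% in TAN 1, 2 and 4, and 5.48% in TAN 3. Of 11 neutrophil markers, 10 or 11 were above background on every array, but 9 were lower in TAN than in NN and none higher, and in G-MDSC 6 were lower and 1 higher. Of all probes, 29.1% were lower and 32.7% higher in TAN, and 18.5% lower and 18.0% higher in G-MDSC. Ngp, a granule protein of neutrophils, averaged 7.88 in TAN, with a lowest of 6.40 and a highest of 11.36, 14.85 in G-MDSC and 15.81 in NN. S100a8, one of the 2 markers that were not called in TAN, averaged 15.71 ± 0.14 in TAN (SD, n = 4), 15.59 ± 0.17 in G-MDSC (SD, n = 4) and 15.84 ± 0.06 in NN (SD, n = 7). Ly6g itself was not analysed here.

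As background, Ppbp and Pf4 encode CXC chemokines that are stored in the alpha granules of platelets and released on activation. Gp1bb, Gp5 and Gp9 encode chains of the GPIb-IX-V complex, which binds von Willebrand factor, and Itga2b and Itgb3 encode the integrin αIIbβ3, the platelet receptor for fibrinogen. Itga2b marks the megakaryocyte lineage, whereas Itgb3 is also made by other cells. Pf4 is made by macrophages as well as by megakaryocytes, and in the mouse bone marrow, megakaryocytes lie among the developing neutrophils.

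Ppbp and Pf4 are neighbors on chromosome 5, with annotated starts 3917 bases apart. The 250 bases before the annotated start of both are shown because the 2 genes parted in TAN, and those of Gp5, a gene that fell in both tumor-related populations, are shown beside them. They come from RefSeq (GRCm38.p6), where 9 of the 10 genes matched and Itgb3 did not. Capitals mark GGAAG, the core letters bound by ETS factors such as Fli1, and the word AGATAA, the word AGATAG, the word TGATAA or the word TGATAG, bound by GATA factors, on either strand.
Ppbp, chr5:90768268-90768517, plus strand: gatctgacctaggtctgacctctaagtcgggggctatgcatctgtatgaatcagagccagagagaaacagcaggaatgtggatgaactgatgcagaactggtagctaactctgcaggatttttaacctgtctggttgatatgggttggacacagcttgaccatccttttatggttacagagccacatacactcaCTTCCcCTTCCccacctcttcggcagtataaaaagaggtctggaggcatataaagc
Pf4, chr5:90772185-90772434, plus strand: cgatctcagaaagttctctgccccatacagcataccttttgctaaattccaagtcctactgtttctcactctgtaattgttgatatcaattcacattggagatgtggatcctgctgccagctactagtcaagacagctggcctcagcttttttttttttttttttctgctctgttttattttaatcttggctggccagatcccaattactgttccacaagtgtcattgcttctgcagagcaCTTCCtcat
Gp5, chr16:30310782-30311031, minus strand: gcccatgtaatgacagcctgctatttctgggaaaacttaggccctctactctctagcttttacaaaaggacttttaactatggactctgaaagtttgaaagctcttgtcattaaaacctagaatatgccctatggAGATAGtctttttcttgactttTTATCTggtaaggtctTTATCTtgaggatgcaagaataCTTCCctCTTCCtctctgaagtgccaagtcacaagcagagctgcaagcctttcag
The words were chosen after these sequences had been seen, and a match is a description of letters only. GGAAG was found before the start of 8 of the 9 genes, against 64.1% of all 32851 promoter windows of this length. A GATA word was found in 3 of the 9, Gp1bb, Gp5 and Gp6, against 26.5% of all windows, and Gp5 held 3 such words. The longer words, AGGAAG or else CGGAAG, which overlap with the core, were found in 5 of the 9, against 39.2%. Both chemokine windows carry GGAAG, Ppbp 2 of them and Pf4 1, and none of these GATA words.

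Most of the platelet genes were low in both tumor-related populations. In TAN, 7 of the 9 genes fell relative to NN and none rose, with log2 differences of -5.78 to -3.52 (limma, adjusted p of at most 1.8e-07), in a comparison where 61.7% of all probes were called, 29.1% lower and 32.7% higher. Pf4 and Itgb3 were the exceptions. In G-MDSC, 8 of the 9 fell relative to NN and none rose, with log2 differences of -6.98 to -3.43 (limma, adjusted p of at most 6.2e-07), in a comparison where 36.5% of all probes were called, 18.5% lower and 18.0% higher. Here Itgb3 alone missed the threshold. The median difference over the 9 genes was -3.83 for TAN and -4.66 for G-MDSC, against medians over all probes of 0.052 and 0.0013. The TAN and NN arrays did not overlap for 7 of the 9 genes (43.4% of all probes), nor the G-MDSC and NN arrays for 8 of the 9 (32.0%). Both comparisons share the NN arrays. In bulk RNA, fewer cells of a type and less RNA per cell cannot be told apart.

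**Figure D1:**
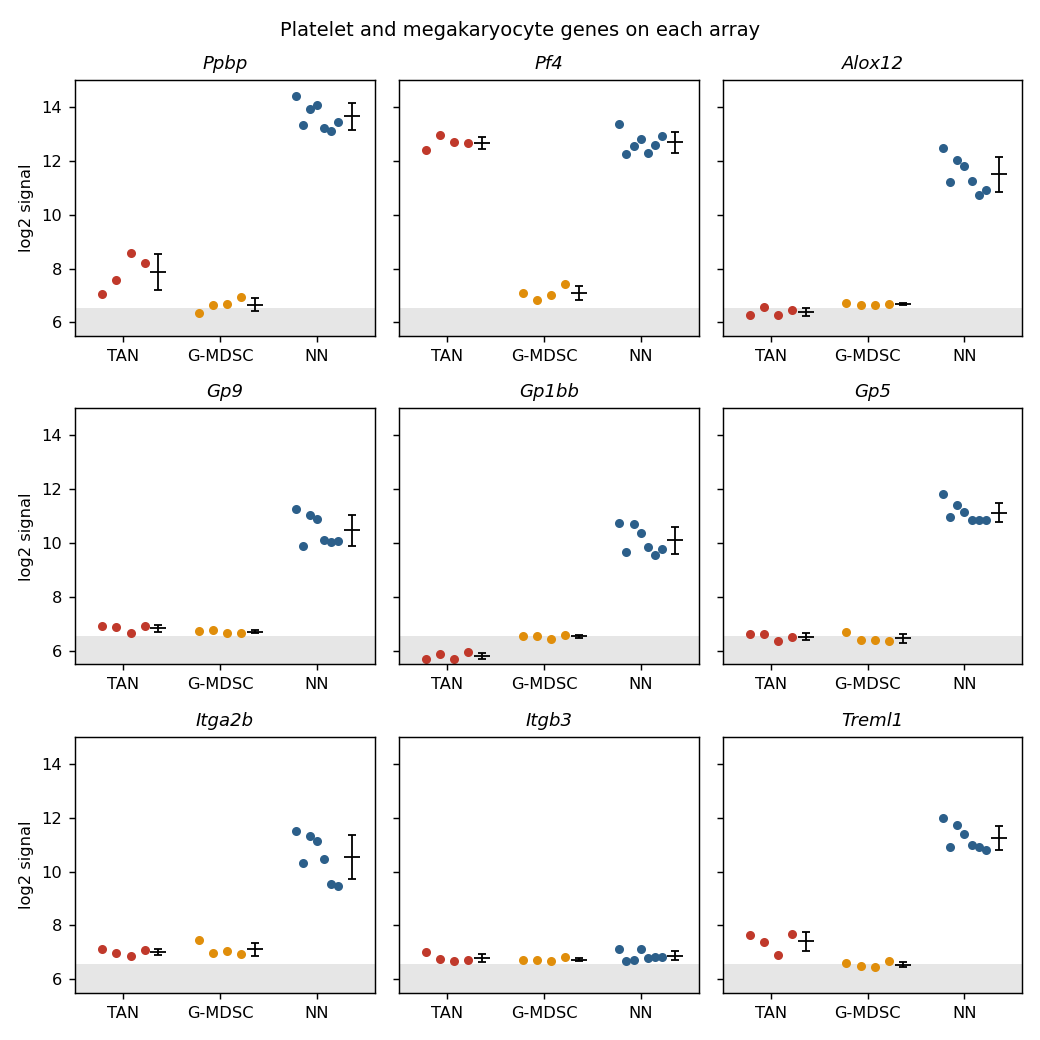
Log2 signal of the 9 genes on each array (points, in the order of the array numbers) in TAN, G-MDSC and NN, with the mean and SD of each population at its right; the grey band ends at the highest background limit of any array, 6.56. Pf4 is high in TAN and NN and low in G-MDSC, Itgb3 lies just above the band throughout, and the other genes are high in NN only.

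**Figure D2:**
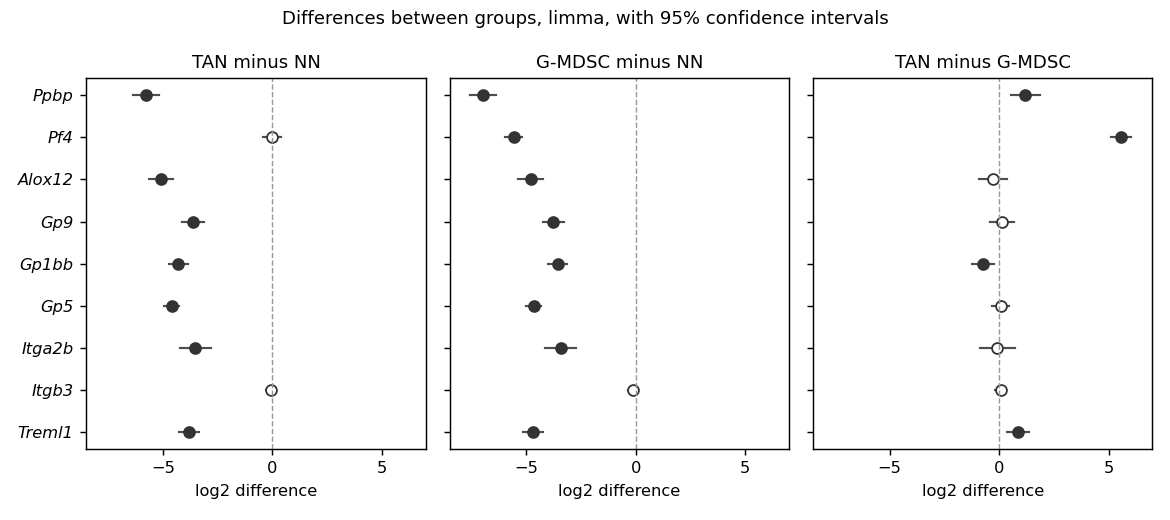
Log2 differences between the populations with 95% confidence intervals from limma, in the 3 panels TAN minus NN, G-MDSC minus NN and TAN minus G-MDSC; filled points have an adjusted p under 0.05. Pf4 lies at -0.01 between TAN and NN and at 5.57 between TAN and G-MDSC.

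Ppbp, which encodes the platelet basic protein CXCL7, showed the largest decrease of the set in both comparisons with NN. Its log2 signal was 7.07, 7.58, 8.56 and 8.22 in TAN 1 to 4, and 6.34, 6.66, 6.68 and 6.93 in G-MDSC 1 to 4. In NN it had a minimum of 13.09, a median of 13.43 and a maximum of 14.41. No TAN or G-MDSC array came near the NN arrays, and G-MDSC 1 was below background. The signal fell in both, with a difference of -5.78 in TAN relative to NN (standard error 0.28, 55-fold, adjusted p = 7.3e-11) and of -6.98 in G-MDSC (standard error 0.28, 126-fold, adjusted p = 3.3e-11). A further probe for Ppbp averaged 6.57 in TAN, 6.49 in G-MDSC and 13.42 in NN, with a difference of -6.85 for TAN and -6.93 for G-MDSC. On that probe, only TAN 3 of the TAN was above background.

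Pf4, which encodes the platelet factor 4 (CXCL4), behaved differently in TAN. Its log2 signal was 12.38, 12.94, 12.69 and 12.65 in TAN 1 to 4, 7.09, 6.84, 7.02 and 7.44 in G-MDSC 1 to 4, and 12.24, 12.57 and 13.36 in NN at the minimum, median and maximum. Every TAN array thus lay within the NN range, and every G-MDSC array lay far below it. The difference between TAN and NN was -0.01 (standard error 0.19, 95% confidence interval -0.41 to 0.39, adjusted p = 0.974), and its sign depended on the setting. In G-MDSC, Pf4 fell by 5.58 relative to NN (standard error 0.19, 47.7-fold, adjusted p = 3.9e-12). A single probe measured this gene.

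To set the 2 chemokines against each other, the difference of their log2 signals was taken on each array and only its change between populations was tested. Pf4 minus Ppbp was 5.32, 5.36, 4.13 and 4.43 in TAN 1 to 4, 0.75, 0.18, 0.34 and 0.51 in G-MDSC 1 to 4, and between -1.37 and -0.51 in NN. The TAN arrays lay far above all others. The change was 5.77 for TAN against NN and 1.41 for G-MDSC against NN (exact two-sided permutation test, p = 0.00303 each, adjusted 0.00455 over the 3 comparisons). It was 4.37 for TAN against G-MDSC (exact permutation p = 0.0286, adjusted 0.0286). These are the smallest p these group sizes allow. In G-MDSC both signals lay near the background limit, so that the higher signal of the Ppbp probe in NN alone gives a positive change there, and nothing is read from the 1.41 or its p. Within one background level, the change was 5.95 for TAN against NN 1 to 5 (exact permutation p = 0.00794) and 0.96 for G-MDSC against NN 6 and 7 (exact permutation p = 0.0667, the smallest possible with so few arrays).

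**Figure D3:**
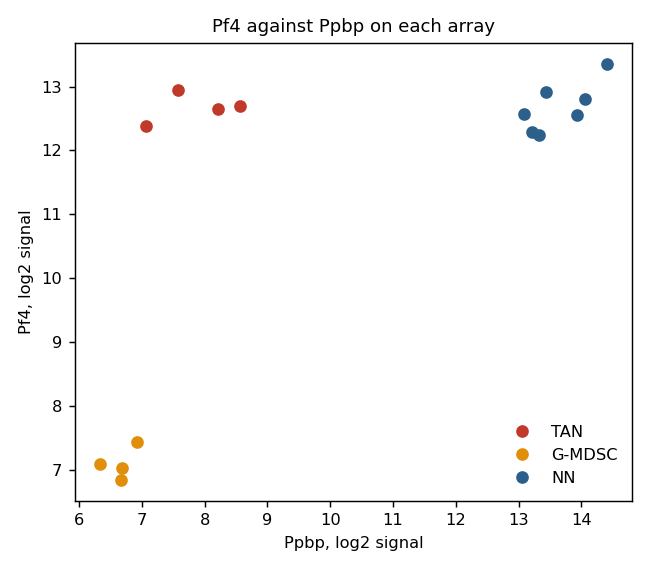
Log2 signal of Pf4 (vertical) against that of Ppbp (horizontal) on each array, colored by population. The TAN arrays combine a Pf4 signal of 12.38 to 12.94 with a Ppbp signal of 7.07 to 8.56, whereas both genes are high in NN and low in G-MDSC.

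Since Pf4 is also a macrophage gene, a list of 11 measured macrophage markers was set beside it. The mean signal of this list was 10.76, 11.15, 12.62 and 11.66 in TAN 1 to 4, 8.94 to 9.34 in G-MDSC and 8.94 to 9.75 in NN. Of the 11 markers, 8 rose in TAN relative to NN and none fell, while in G-MDSC 1 rose and 1 fell. Of all probes, 32.7% were higher and 29.1% lower in TAN, and 18.0% higher and 18.5% lower in G-MDSC. Adgre1, the F4/80 antigen, averaged 12.07 ± 0.13 in TAN (SD, n = 4), 10.58 ± 0.13 in G-MDSC (SD, n = 4) and 9.69 ± 0.23 in NN (SD, n = 7). Dab2, an endocytic adaptor of macrophages and the marker with the largest rise in TAN, averaged 13.42, 6.75 and 7.06 in TAN, G-MDSC and NN. The markers not called in TAN relative to NN were C1qa, C1qc and Mertk. C1qa averaged 9.51 ± 2.41 in TAN (SD, n = 4) and 9.20 in NN, and C1qc 11.34 ± 2.35 in TAN (SD, n = 4) and 11.37 in NN. Their highest TAN values were 13.05 and 14.55, against TAN medians of 8.55 and 10.73. Mertk had a difference of -0.74 (limma adjusted p = 0.0544). All 11 were above background on every TAN and NN array, and 10 or 11 on the G-MDSC arrays. Csf1r and Cd68 were not analysed here. The TAN array with the highest macrophage mean, TAN 3, was the second highest of the TAN for Pf4 and the highest for Ppbp. On TAN 3, probes lay over 4-fold apart in 5.48% of genes with several probes, against 17.5 to 22.6% on the other TAN. The order of the TAN by macrophage mean is therefore not read as their macrophage content. The part of macrophage RNA in the Pf4 signal was not tested.

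Alox12 encodes the 12-lipoxygenase of platelets, which oxidizes arachidonic acid. Its log2 signal was 6.28, 6.56, 6.27 and 6.46 in TAN 1 to 4, 6.74, 6.64, 6.65 and 6.70 in G-MDSC 1 to 4, and 10.73, 11.23 and 12.48 in NN at the minimum, median and maximum. Only TAN 2 of the TAN was above background, while all G-MDSC were just above it. Alox12 fell in both, with a difference from NN of -5.09 in TAN (standard error 0.26, 34.1-fold, adjusted p = 1.2e-10) and of -4.80 in G-MDSC (standard error 0.26, 27.9-fold, adjusted p = 7.2e-10). The TAN fold is that of the measured signals, whose mean in TAN (6.39) was itself under the background limit. A dimmer probe for this gene was below background on all TAN and G-MDSC arrays and above it in 6 of 7 NN. For it, NN was higher than TAN by at least 1.21-fold and higher than G-MDSC by at least 1.23-fold (adjusted p = 2.4e-04 and 1.3e-04 in limma). Such a bound sets the mean of NN against the lowest signal above background on each array of the dim population, or the probe's own where that is higher.

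The 3 measured chains of the GPIb-IX-V complex fell together. Gp9 had 6.93, 6.88, 6.65 and 6.92 in TAN 1 to 4, 6.74, 6.78, 6.67 and 6.68 in G-MDSC 1 to 4, and 9.88, 10.12 and 11.26 in NN at the minimum, median and maximum. Gp5 had 6.64, 6.64, 6.36 and 6.50 in TAN 1 to 4, 6.70, 6.40, 6.40 and 6.36 in G-MDSC 1 to 4, and 10.85, 10.95 and 11.81 in NN. The TAN and G-MDSC arrays thus lay near the background limit for both genes, and far from all NN arrays. The difference of Gp9 from NN was -3.63 in TAN (standard error 0.23, 12.4-fold) and -3.76 in G-MDSC (standard error 0.23, 13.5-fold). That of Gp5 was -4.59 in TAN (standard error 0.16, 24.2-fold) and -4.66 in G-MDSC (standard error 0.16, 25.3-fold), and the adjusted p in limma was at most 3.4e-09 for both genes in both populations. Gp5 was above background on only 2 TAN arrays and 1 G-MDSC array, so that its folds set NN against signals at the background limit.

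Gp1bb, the beta chain of glycoprotein Ib, was the one gene of the set whose brightest probe was below background on every array of a population. Its log2 signal was 5.71, 5.88, 5.70 and 5.96 in TAN 1 to 4, 6.55, 6.56, 6.45 and 6.59 in G-MDSC 1 to 4, and 9.56, 9.85 and 10.75 in NN at the minimum, median and maximum. NN was therefore at least 11.9-fold higher than TAN (limma adjusted p = 7.7e-11). In G-MDSC, where 3 of 4 arrays were above background, Gp1bb fell by 3.56 relative to NN (standard error 0.21, 11.8-fold, adjusted p = 1.8e-09).

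The 2 integrin chains differed from each other in their behavior. Itga2b, the αIIb chain, had 7.12, 6.99, 6.88 and 7.09 in TAN 1 to 4, 7.47, 6.97, 7.05 and 6.96 in G-MDSC 1 to 4, and 9.48, 10.48 and 11.52 in NN at the minimum, median and maximum. It had the widest NN range of the set (2.04), with NN 6 at 9.55 and NN 7 at 9.48. Itga2b fell in both, with a difference from NN of -3.52 in TAN (standard error 0.33, 11.5-fold, adjusted p = 1.8e-07) and of -3.43 in G-MDSC (standard error 0.33, 10.8-fold, adjusted p = 6.2e-07). Against NN 6 and 7 alone, which share the background level of G-MDSC, the decrease was smaller, at -2.40 (adjusted p = 1.3e-04 in limma). A further Itga2b probe had a difference of -3.00 for TAN and -2.66 for G-MDSC.

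Itgb3, the β3 chain, lay between 6.69 and 7.12 on all 15 arrays, above the background limit on each but never by much. It averaged 6.80 ± 0.15 in TAN (SD, n = 4), 6.73 ± 0.06 in G-MDSC (SD, n = 4) and 6.88 ± 0.17 in NN (SD, n = 7). The populations overlapped, with a difference of -0.08 for TAN (95% confidence interval -0.29 to 0.14, adjusted p = 0.538 in limma) and -0.14 for G-MDSC (95% confidence interval -0.36 to 0.07, adjusted p = 0.294). A single probe near background measured this gene.

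Treml1, a receptor stored in the alpha granules of platelets and megakaryocytes (TLT-1), was low but not at background in TAN. Its log2 signal was 7.63, 7.39, 6.92 and 7.70 in TAN 1 to 4, 6.61, 6.48, 6.45 and 6.67 in G-MDSC 1 to 4, and 10.81, 10.99 and 11.97 in NN at the minimum, median and maximum. All TAN arrays were above background, against 2 of 4 G-MDSC. Treml1 fell in both, with a difference from NN of -3.83 in TAN (standard error 0.21, 14.2-fold, adjusted p = 3.3e-10) and of -4.68 in G-MDSC (standard error 0.21, 25.7-fold, adjusted p = 1.1e-10).

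TAN and G-MDSC were then compared directly, in a comparison where 58.8% of all probes were called (32.1% higher and 26.7% lower in TAN). Of the 9 genes, 3 were higher in TAN, 1 was lower and 5 were not called, and the arrays did not overlap for 5 of the 9 (43.7% of all probes). Pf4 was higher in TAN by 5.57 (standard error 0.21, 47.5-fold, adjusted p = 1.9e-11). Ppbp was higher by 1.2 (standard error 0.32, 2.30-fold, adjusted p = 0.00437) on its brighter probe, but its other probe gave 0.08 (95% confidence interval -0.66 to 0.82, adjusted p = 0.848). Treml1 was higher by 0.86 (standard error 0.24, 1.81-fold, adjusted p = 0.00646). Gp1bb was lower by a measured -0.73 (adjusted p = 0.0157 in limma), and with TAN below background the bound was at least 1.01-fold. The difference was not called for Alox12 (-0.29, 95% confidence interval -0.91 to 0.34), Itga2b (-0.09, -0.89 to 0.71), Itgb3 (0.07, -0.18 to 0.31), Gp9 (0.13, -0.43 to 0.69) and Gp5 (0.07, -0.33 to 0.46), whose adjusted p lay between 0.412 and 0.844. The Alox12 arrays did not overlap between the populations all the same. No background level holds both populations, so that level and population cannot be told apart without NN. With the level as a block, fitted through NN, the call of Pf4 held, Ppbp and Treml1 lost theirs (0.68 and 0.33, adjusted p = 0.311 and 0.506), and Alox12 and Itga2b were called lower in TAN (-1.22 and -1.53, adjusted p = 0.0139 and 0.00417).

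For the comparisons with NN, the same numbers of genes were called within a single background level. Within the higher level, 8 of the 9 genes fell in G-MDSC relative to NN 6 and 7 (27.7% of all probes called), with -6.61 for Ppbp, -5.65 for Pf4 and -4.39 for Gp5. Within the lower level, 7 of the 9 fell in TAN relative to NN 1 to 5 (56.9% of all probes called), with -5.93 for Ppbp, -4.70 for Gp5 and 0.02 for Pf4 (adjusted p = 0.946, not called).

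The genes also varied together among the NN arrays. In 7 of the 9 genes, NN 1, NN 3 and NN 4 were the 3 highest of the 7 NN arrays, the exceptions being Pf4 (NN 1, NN 4 and NN 7) and Itgb3 (NN 1, NN 4 and NN 6). NN 1 was above the NN mean for all 9 genes, by 0.72 on average, and NN 6 below it for all 9, by 0.45. For Gp9 the lowest of the 3 was at 10.89 and the highest of the rest at 10.12. This pattern was noticed in the values and is a description, and the share of all probes with the same order is not given here. The 3 arrays share the lower background level with NN 2 and NN 5, which were below the mean for all 9 genes. Erythroid markers did not follow this order, with a list mean of 11.67 in NN 1, 11.99 in NN 3 and 11.90 in NN 4, and of 12.01 in NN 2, 11.84 in NN 5, 11.97 in NN 6 and 11.67 in NN 7. Endothelial markers did have these 3 arrays highest, with a list mean of 7.62, 7.72 and 7.74 in NN 1, NN 3 and NN 4. The other NN arrays had 7.07 to 7.34. Among the further platelet genes described below, receptors, granule contents and signalling, enzymes and cytoskeleton also had these 3 highest. The transcription factors did not. Among the TAN and G-MDSC arrays, the mean deviation of the 9 genes from their population mean was at most 0.10. Most of these signals lay near the background limit, which leaves little room for deviations. Single genes varied more, with Ppbp at -0.79 to 0.70 and Treml1 at -0.49 to 0.29 from their mean in TAN.

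Genes with a profile like those of the 2 chemokines were sought among 9250 genes that were above background on at least 4 NN arrays. Likeness was the root mean square difference of the log2 signals over the 15 arrays, after each gene was centered on its NN mean. The 5 genes most like Ppbp were Alas2 (1.04), which starts heme synthesis in erythroid cells, the water channel Aqp1 (1.08), the eosinophil granule gene Prg2 (1.14), the erythroid gene Trim10 (1.21) and Alox12 (1.24). Gp5 ranked 8th (1.41), Treml1 15th (1.62), Gp1bb 22nd (1.95), Gp9 27th (2.04) and Itga2b 35th (2.23), while Pf4 ranked 150th (3.09). The measure is not scaled, so for genes that were low in TAN and G-MDSC it also depends on their brightness in NN. There, Gp5, Treml1, Gp1bb, Gp9 and Itga2b averaged 10.10 to 11.24, against 13.64 for Ppbp. The genes most like Pf4 were the peroxiredoxin Prdx2 (1.30), the sphingosine kinase Sphk1 (1.38), the epigenetic regulator Uhrf1 (1.39), the activin subunit gene Inhba (1.40) and the cytokinesis gene Prc1 (1.42). They were further from Pf4 than the first 5 were from Ppbp, and none belongs to the platelet set. Inhba averaged 11.77 in TAN, 8.76 in G-MDSC and 11.73 in NN.

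Beyond the set, 48 of 59 further genes with a role in platelets or megakaryocytes were measured. In TAN, 30 fell relative to NN, 10 rose and 8 were not called, where 29.1% of all probes were lower and 32.7% higher. In G-MDSC, 31 fell, 6 rose and 11 were not called, where 18.5% of all probes were lower and 18.0% higher. Between TAN and G-MDSC, 12 were higher in TAN, 10 lower and 26 not called, a smaller share called than the 58.8% of all probes. The median differences were smaller than in the set, at -0.87 for TAN and -0.75 for G-MDSC. Many of these genes are also used by other blood cells.

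The transcription factors of megakaryocytes moved largely in one direction, with 9 of 11 lower in TAN (29.1% of all probes) and 10 of 11 lower in G-MDSC (18.5%) relative to NN, and 1 higher in TAN (Runx1). Zfpm1, the GATA cofactor FOG-1, averaged 9.33 ± 0.57 in TAN (SD, n = 4), 7.88 ± 0.95 in G-MDSC (SD, n = 4) and 12.12 ± 0.27 in NN (SD, n = 7). It was at 9.31 in G-MDSC 1 and at 7.36 to 7.49 in the other G-MDSC. Nfe2, a regulator of platelet formation, had a difference of -2.63 for TAN and -1.0 for G-MDSC, and the leukemia-associated factor Lyl1 of -1.67 and -0.91. Mafg, a small Maf partner of Nfe2, had -1.78 in TAN and -1.02 in G-MDSC. Tal1, which also acts in red cell precursors, had -2.66 in TAN and -2.64 in G-MDSC. Gata1, likewise a factor of both lineages, was below background on all TAN arrays and on 3 of 4 G-MDSC, and NN was at least 2.05-fold higher than TAN.

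Of 11 receptors, 8 fell and 1 rose in either population relative to NN, where 29.1% of all probes were lower in TAN and 18.5% in G-MDSC. The receptor that rose was P2ry12, an ADP receptor, by 1.91 in TAN and by 1.67 in G-MDSC (limma adjusted p = 1.4e-07 and 1.6e-06). P2ry1, the other ADP receptor, fell by 1.25 in TAN and was not called in G-MDSC (0.33, adjusted p = 0.0733). The protease-activated receptor gene F2rl2 fell by 1.05 in G-MDSC and was not called in TAN (-0.07). The tetraspanin gene Cd9 had 10.44, 10.70, 14.07 and 11.26 in TAN 1 to 4, so that TAN 3 stood above every NN array (13.71 to 13.95). Its difference was -2.18 for TAN (adjusted p = 7.6e-04 in limma), and -3.00 without TAN 3 and G-MDSC 1. In G-MDSC, its difference was -0.97 (adjusted p = 0.124), and -0.86 without these arrays (adjusted p = 3.5e-05 in limma). TAN 3 was the TAN array on which probes of the same gene disagreed least, so the TAN value without it is not taken as the better estimate.

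The granule contents split, with 7 of 13 lower and 6 higher in TAN, and 7 lower and 4 higher in G-MDSC, relative to NN. Of all probes, 29.1% were lower and 32.7% higher in TAN, and 18.5% lower and 18.0% higher in G-MDSC. Among those that rose were Srgn, the proteoglycan serglycin, by 2.38 in TAN and 1.96 in G-MDSC, and F13a1, coagulation factor XIII, by 3.11 and 1.25. Selp, which encodes P-selectin, rose by 1.08 in TAN and by 2.03 in G-MDSC. Vwf, the von Willebrand factor gene of megakaryocytes and endothelium, fell in both, with a difference of -2.08 in TAN and -2.95 in G-MDSC. Tgfb1 fell by 1.05 in TAN, with TAN 3 apart at 11.48, and was not called in G-MDSC (0.63). Its difference without TAN 3 and G-MDSC 1 was -1.65 for TAN, which, as for Cd9, is not taken as the better estimate. Srgn and F13a1 are also expressed by myeloid cells.

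Of the 13 genes of signalling, enzymes and cytoskeleton, 6 were lower and 2 higher in TAN, about the share of all probes (61.7% called), and 6 lower and 1 higher in G-MDSC (36.5%). Plek, the platelet kinase C substrate pleckstrin, rose by 1.21 in TAN and by 0.49 in G-MDSC. Tbxas1, the thromboxane synthase, rose by 1.27 in TAN and fell by 0.58 in G-MDSC. Fermt3, which activates integrins in blood cells, had 7.18, 6.73, 11.40 and 7.16 in TAN 1 to 4, with TAN 3 apart from the rest. Its difference was -4.03 for TAN (adjusted p = 3.8e-05 in limma), and -5.12 without TAN 3 and G-MDSC 1. Since probes of the same gene disagreed more on TAN 1, 2 and 4 than on TAN 3, which value is nearer the truth was not tested. Pdlim1 was called in neither population, and Tubb1, the β1-tubulin of platelets, was near background throughout (6.40, 6.34 and 6.66 in TAN, G-MDSC and NN).

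Of the marker lists of cells other than neutrophils, the erythroid and the endothelial one had most of their genes lower in both populations. For the counts that follow, 29.1% of all probes were lower and 32.7% higher in TAN than in NN, and 18.5% lower and 18.0% higher in G-MDSC. All 8 measured erythroid genes fell in both populations, with list means of 6.99 to 7.33 in TAN, 7.27 to 7.91 in G-MDSC and 11.67 to 12.01 in NN. Between 4 and 5 of these 8 were above background in TAN, and all 8 in NN. Of 7 endothelial genes, Vwf not among them, 6 fell in each population, with list means of 6.54 to 6.72 in TAN, 6.59 to 6.79 in G-MDSC and 7.07 to 7.74 in NN. B cell markers averaged 6.74 to 7.14 in TAN, 7.24 to 9.99 in G-MDSC, where G-MDSC 1 stood apart, and 8.23 to 8.97 in NN, with 3 of 6 lower in TAN, 1 of 6 lower in G-MDSC and none higher. T and NK cell markers averaged 7.17 to 7.64 in TAN, 7.55 to 9.96 in G-MDSC and 7.74 to 8.12 in NN, with 1 of 6 lower and none higher in each population. The lower one was Cd3d, which averaged 11.07, 12.03 and 13.60 in TAN, G-MDSC and NN. It was by far the brightest of the list and weighs on the list mean. Mast cell and basophil markers averaged 8.14 to 8.18 in TAN, 7.95 to 8.69 in G-MDSC and 8.46 to 8.99 in NN, with 3 of 6 lower in TAN, 4 of 6 lower in G-MDSC and Hdc, the histidine decarboxylase gene, higher in both. Hdc averaged 15.92, 15.73 and 15.10 in TAN, G-MDSC and NN, by far the brightest of its list, and weighs on the list mean. The neutrophil list was lower in both populations as well, with 9 of 11 lower in TAN and 6 of 11 lower in G-MDSC. It averaged 10.39 to 11.28 in TAN, 12.74 to 12.88 in G-MDSC and 14.01 to 14.23 in NN. The part of other cells in the platelet signal was not tested. Without G-MDSC 1 and TAN 3, the calls of the platelet set were again 8 lower in G-MDSC, 7 lower in TAN, and 3 higher and 1 lower between TAN and G-MDSC. In these 3 comparisons, 47.7, 69 and 67% of all probes were then called, against 36.5, 61.7 and 58.8% with all arrays.

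**Figure D4:**
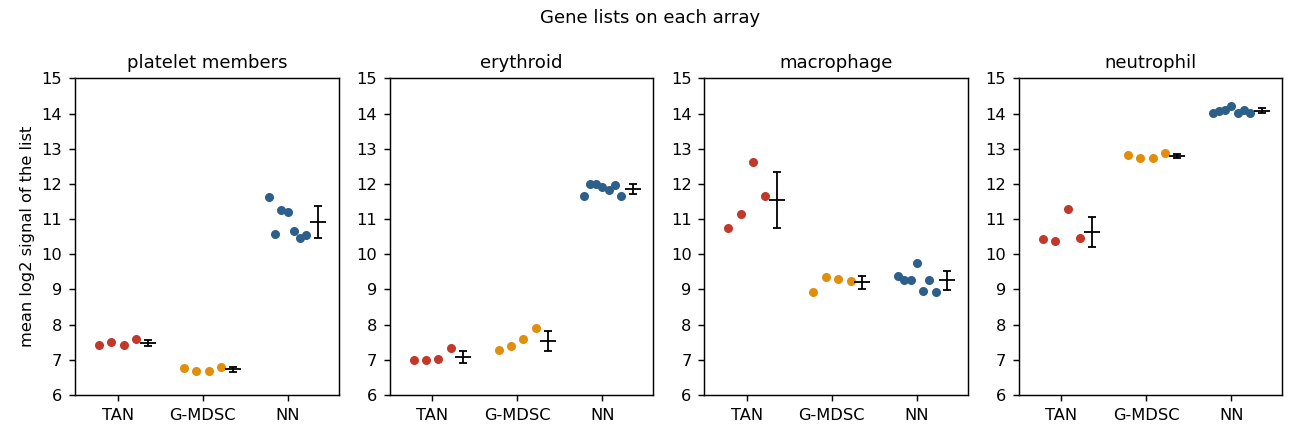
Mean log2 signal of 4 gene lists on each array in TAN, G-MDSC and NN, with the mean and SD of each population at its right. The platelet genes and the erythroid genes are high in NN only, the macrophage genes are highest in TAN, at 10.76 to 12.62, and the neutrophil genes are lowest in TAN.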

How the data were processed

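Gene expression was measured on 15 Illumina Mouse Ref-8 v2 arrays. The deposited files hold the intensity of 25697 probes per array, as the authors exported it from Bead Studio, without normalization. A deposited table of normalized intensity values holds 16322 probes, which the authors had quantile normalized and filtered. Groups and replicates followed the labels. Whether arrays came from separate experiments is not given in the sources used here, so that p-values measure the spread between arrays.

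Background was corrected with limma 3.58.1 (R 4.3.3; normexp, offset 50) followed by quantile normalization of log2 values. The offset and background compress differences of dim probes. Probes of the authors' table that varied at least 1.2-fold between some pair of arrays were tested (16317; 5 left out). All arrays entered 1 limma model (lmFit, eBayes), with Benjamini-Hochberg adjustment over all probes of each comparison and a threshold of 0.05. The model was tested on simulated data, drawn for all arrays from each probe's NN mean and SD. The wider spread of some genes in TAN was not simulated. The analysis of variance of the methods was not run, and its nearest alternative here was the same model without variance moderation. Genes named were all members, the 4 brightest of each further list by mean signal, and the 5 most like Ppbp and Pf4. Runx1, Gata1, Tal1, Vwf, Tubb1 and the marker genes were singled out after their values were seen. The members and lists were chosen with earlier results of these data known. Probes were named from GEO's platform annotation (15321 of the tested probes had 1 symbol, 996 none). The number of arrays limits the precision. Former symbols were read from RefSeq's gene table and a short list of names. Alternatives were other background corrections, median scaling, no filter, the authors' value table, array weights, the mean of a gene's probes, blocks for the replicate number and for the background level, arrays of a single background level, and the omission of single arrays or of G-MDSC 1 and TAN 3. Pf4 minus Ppbp was compared by exact permutation of the arrays.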

Additional observations from a re-analysis of the deposited data

Results flagged for a closer look

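The log2 signal of Gp5 in G-MDSC 1 was 6.70, against 6.36 to 6.40 in the other G-MDSC arrays. This gap was large for the range of the group by Dixon's criterion, the single case among the 27 combinations of 9 genes and 3 populations, of which chance flags about 1 in 20. G-MDSC 1 was also the one G-MDSC array on which Gp5 was above background. All 4 G-MDSC values lay far below the NN minimum of 10.85. On the same array, the B cell markers averaged 9.99 and the T and NK cell markers 9.96, the highest of the G-MDSC. Whether these move with Gp5 for a shared reason was not tested.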

How the results depend on the processing

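Of 919 values recomputed under other settings, 897 kept their direction and their side of the threshold or, for counts of genes, stayed within 1.5 times the reported count, 6 lost a call, 2 gained one and 14 changed sign, in each case with neither value called. The counts of called platelet genes in the comparisons with NN were 8 for G-MDSC and 7 for TAN under every setting, including the omission of any single array. Between TAN and G-MDSC, 4 were called in every run without a single array, and 3 with plain subtraction and with the mean of all probes. The wider lists had 32 to 43 called genes in G-MDSC, 39 to 41 in TAN and 19 to 25 between TAN and G-MDSC in these runs. The small difference of Pf4 between TAN and NN turned to 0.21 with median scaling, 0.07 with array weights, and 0.02 with a block for the level of background, likewise 0.02 within the lower level, and ranged from -0.10 to 0.11 over single arrays left out. Between TAN and G-MDSC, Itga2b turned to 0.02 with array weights and to 0.07 without G-MDSC 1 and TAN 3, and ranged from -0.14 to 0.02 over single arrays left out, as Itgb3 did from -0.01 to 0.10. With the level as a block, Gp9 turned to -0.45 and Gp5 to -0.31, and 3 genes were called lower and 1 higher in TAN. Gp1bb lost its call with plain subtraction (-0.29, adjusted p = 0.381), and Ppbp with the mean of its probes (0.64, adjusted p = 0.0963). The change of Pf4 minus Ppbp lost its call within the higher level (0.96) and, between TAN and G-MDSC, without G-MDSC 1 and TAN 3 (4.70, adjusted p = 0.10), where fewer arrays cannot pass the threshold. The other Ppbp probe and the wider lists without G-MDSC 1 and TAN 3 were chosen after seeing the data. That probe gave changes of Pf4 minus Ppbp of 6.84 for TAN against NN and 5.49 for TAN against G-MDSC. Without these arrays, 44, 41 and 26 genes of the wider lists were called, where 47.7, 69 and 67% of all probes were called. Arrays with the same number shared only a number: their deviations correlated between -0.31 and 0.27. With the replicate number as a block, no call of a platelet gene changed: 8, 7 and 4 platelet genes and 35, 40 and 25 of the wider lists were called, which a block for the background level moved to 27, 40 and 18, against 37, 40 and 22 in the reported fit. Over all probes, 5954, 10074 and 9598 were called for G-MDSC against NN, TAN against NN and TAN against G-MDSC, which array weights moved to 9617, 11790 and 11866 and a block for the background level to 3941, 9653 and 5419. Values near the background limit, as most TAN and G-MDSC values of the set, give little room for differences between these populations.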
